A study of Mus musculus with 24 samples.

Results

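H3K4me3, the trimethyl mark of histone H3 lysine 4, was compared between leukemic splenocytes of Eµ-TCL1A mice with KDM1A knocked down (KD) and the same kind of cells without knockdown (WT). The results below concern the H3K4me3 domains that held both a region listed as unique to KD and a region listed as unique to WT. Regions of all 3 deposited lists (unique to KD, unique to WT, common to both) on autosomes 1 to 14 and 16 to 19 were joined where the gap between them was at most 1000 bp. This gave 26633 domains, and 515 of them (1.93%) had at least 1 KD and at least 1 WT region. These 515 two-way domains were thus chosen by the lists themselves, and what follows describes them without a test.

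All mice were of the C57BL/6 strain and carried the Eµ-TCL1A transgene, which is active in B cells through an immunoglobulin enhancer and causes a disease like chronic lymphocytic leukemia. Per the labels, each condition comprised 3 biological replicates, each with 2 technical ones, and every technical replicate had an immunoprecipitated and an input library (6 of each kind per condition). They name neither the age of the mice nor the method of knockdown, and they mention no sort of the splenocytes. The lists hold 1 score per region for the conditions as a whole, so neither the depth nor the spread between replicates could be measured, and the intervals below cover counting error alone.

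H3K4me3 marks the nucleosomes around active transcription start sites, with a nucleosome-poor stretch at the start site itself, and at strongly used genes it can spread into a broad domain over the first part of the gene. KDM1A (LSD1) takes methyl groups off mono- and dimethylated lysine 4 and cannot act on the trimethylated form. Below, a KD or WT piece is sequence on the list of that condition, and a common piece is sequence on the common list outside both; where lists overlapped, a base was counted as KD or WT.

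KD regions made up 22.4% and WT regions 8.58% of the 58479 regions on these autosomes. At the level of domains, 31.0% of the 26633 held a KD region and 15.2% held a WT region. The two-way domains contained 1019 KD, 579 WT and 2057 common regions, which were 7.79%, 11.5% and 5.09% of their lists. They spanned 4591 kb, or 5.83% of the length of all domains. Within them 458 kb were KD sequence, 277 kb were WT sequence and 3547 kb were common sequence outside both, so KD made up 62.3% of the base pairs in KD or WT pieces. Without the bases that common regions also covered, 344 kb of KD and 242 kb of WT sequence were left, and the KD share was 58.7%. The usual two-way domain was a shared H3K4me3 domain with a single WT piece. Exactly 1 KD region was present in 292 of 515 (56.7%, 95% Wilson interval 52.4 to 60.9%), and exactly 1 WT region in 466 (90.5%, 87.6 to 92.7%). The number of KD regions reached 13 and that of WT regions 8. A domain with no common region at all was seen once and singled out after its values were seen, on chromosome 16 at 38192727 to 38194758. It held KD regions of 309 and 324 bp and a WT region of 564 bp, and the 324-bp KD region was the nearer to WT, at 716 bp.

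The 5 longest domains show the arrangement at full scale. The longest, on chromosome 2 at 90371609 to 90415385, measured 43777 bp and held 9 KD regions, 1 WT region and 13 common regions. All 9 KD regions began within its first 22418 bp, and the WT region of 667 bp (score 10.2) began 38976 bp from its start, so the directions occupied opposite parts of the domain, 16287 bp apart. On chromosome 18 at 80691282 to 80730288 a KD region of 3963 bp (score 15.3) lay 216 bp of common sequence away from a WT region of 5069 bp (score 11.3). That domain had the most pieces of all, 34, with 13 KD regions lying on both sides of its 2 WT regions. On chromosome 10 at 79972227 to 80010863, 3 KD and 2 WT regions lay in the order WT, KD, KD, WT, KD over 38637 bp. KD closed the domain at 1 end with a region of 316 bp. On chromosome 13 at 111912372 to 111948212 4 KD regions, whose highest score was 4.97, lay on both sides of a WT region of 980 bp (score 15.8). On chromosome 7 at 73178280 to 73210884, 12 KD regions of low score (3.31 to 6.54) were spread along 32605 bp around 1 WT region of 324 bp (score 7.35). In 4 of the 5 most of the length was common sequence, while on chromosome 18 KD pieces covered 12778 bp, WT pieces 5376 bp and common sequence outside them 16474 bp.

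**Figure D1:**
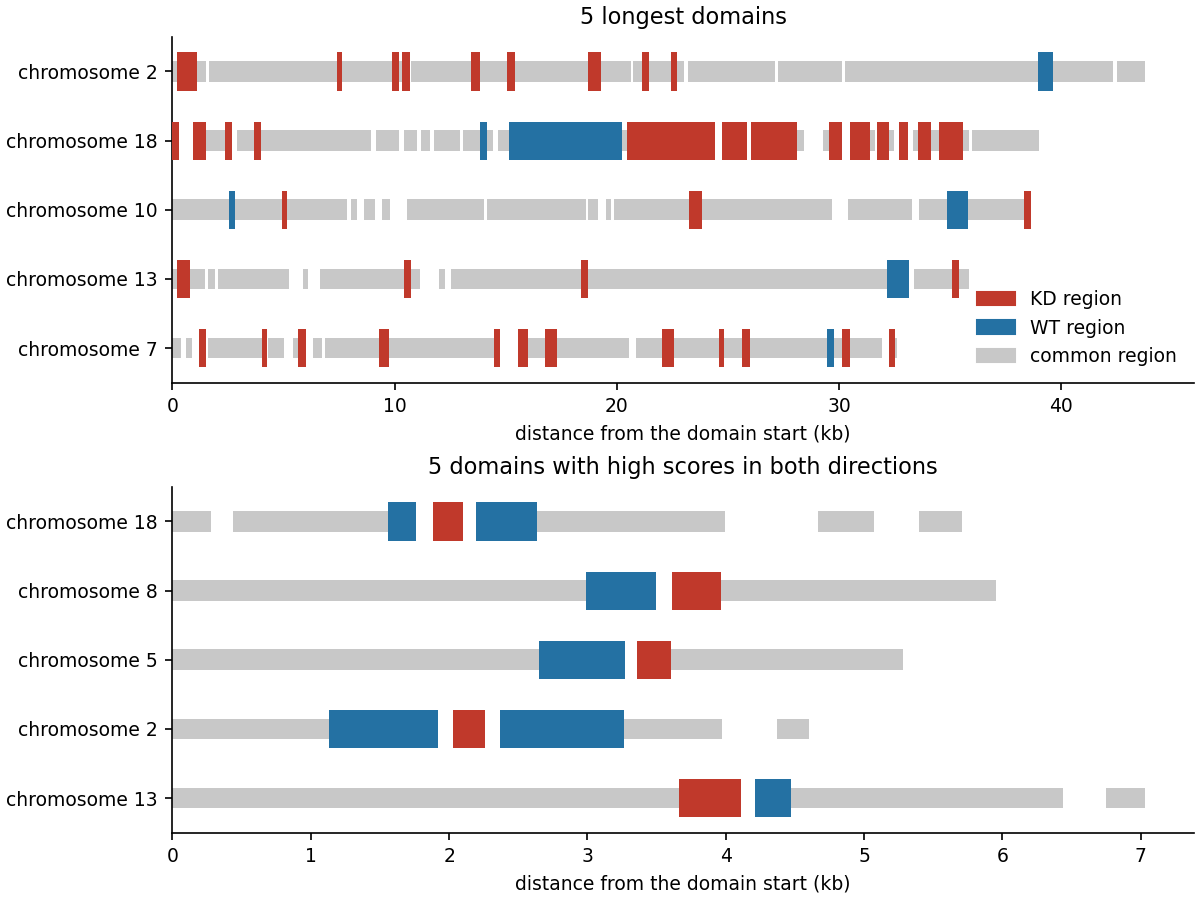
Maps of the 5 longest two-way domains (upper panel) and of the 5 with the highest value of the lower of their top KD and top WT scores (lower panel), by distance from the domain start in kb. Red bars are KD regions, blue bars WT regions and grey bars common regions; in the lower panel KD and WT regions lie 88 to 114 bp apart in the middle of the domain.

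The order of pieces was simple in most domains. It was read base by base, with KD and WT pieces given precedence where they overlapped common regions, and an order and its mirror image were counted together. Of 74 orders, the 5 most frequent accounted for 338 domains (65.6%, 61.4 to 69.6%), and 42 orders were found once. The most frequent was common, WT, common, KD, common, with 125 domains (24.3%, 20.8 to 28.2%). The same order without the last common piece, so that KD closed the domain, had 119 (23.1%, 19.7 to 26.9%). A further 38 domains (7.38%) ended in common, KD, common, KD after the WT piece, and 33 (6.41%) had that order with a common piece at the end. The order common, WT, KD, common, with the pair side by side, had 23 domains (4.47%, 2.99 to 6.61%). Rarer orders held such pairs too. The longest domain with the first order lay on chromosome 9 at 57537483 to 57562948 (25466 bp) and had a KD region of 238 bp and a WT region of 260 bp inside 1 common region of 18711 bp. The longest with the second order lay on chromosome 2 at 3713790 to 3734340 (20551 bp), with a KD region of 635 bp at its outer edge and a WT region of 303 bp 16864 bp away. That was the greatest KD-to-WT distance of all.

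With common pieces left aside, the directions mostly split the domain into a KD side and a WT side. A single change from WT to KD was seen in 426 domains (82.7%, 79.2 to 85.7%), 258 of which could show nothing else since they held 1 region of each kind. The order KD, WT, KD was seen in 78 domains (15.1%, 12.3 to 18.5%), the order WT, KD, WT in 7 (1.36%, 0.660 to 2.78%), and WT, KD, WT, KD in 4. Since KD regions outnumbered WT regions in these domains, flanking by KD had more occasions to be seen. Domains with the order KD, WT, KD, which takes at least 3 KD or WT regions, had a median length of 9453 bp, against 8850 bp for all two-way domains with 3 or more such regions.

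KD pieces formed the outside of the domains more often than WT pieces. A KD piece formed at least 1 end of 262 domains (50.9%, 46.6 to 55.2%) and both ends of 19 (3.69%, 2.37 to 5.69%). A WT piece formed an end of 16 domains (3.11%, 1.92 to 4.99%) and both ends of 0, which allows a share of up to 0.583% by 3 counts of 515 and up to 0.740% by the Wilson interval, and in 10 of the 16 the other end was KD. Common pieces formed both ends of 247 domains (47.96%, 43.7 to 52.3%). From the 281 KD ends to the first region of another kind the median distance was 587 bp (quartiles 346 and 986 bp). In 263 of them it was at least 200 bp. Unlisted gaps count in this distance, so it is not the length of KD sequence at the end. Among the 258 domains with 1 KD and 1 WT region, where neither direction has the advantage of number, KD formed an end in 109 (42.2%, 36.4 to 48.3%) and WT in 8 (3.10%, 1.58 to 6.00%).

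The KD region nearest to an end was closer to it than the nearest WT region in 433 domains (84.1%, 80.7 to 87.0%), and the reverse held in 72 (13.98%, 11.3 to 17.2%). With 1 region of each kind the counts were 212 and 41 of 258. The KD region lay a median of 0 bp from the end over all two-way domains (upper quartile 946 bp), and the WT region lay 1929 bp from it (quartiles 1221 and 2749 bp). On the single autosomes KD was the nearer to the end in 69.7 to 93.3% of two-way domains and formed an end in 41.2 to 72.4% of them. Shared sequence was distributed accordingly. The longest common region of a domain, with a median of 3104 bp, was touched or overlapped by a KD region in 220 domains (42.7%, 38.5 to 47.0%) and by a WT region in 435 (84.5%, 81.1 to 87.3%). Bases that it shared with KD or WT regions were included here.

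**Figure D2:**
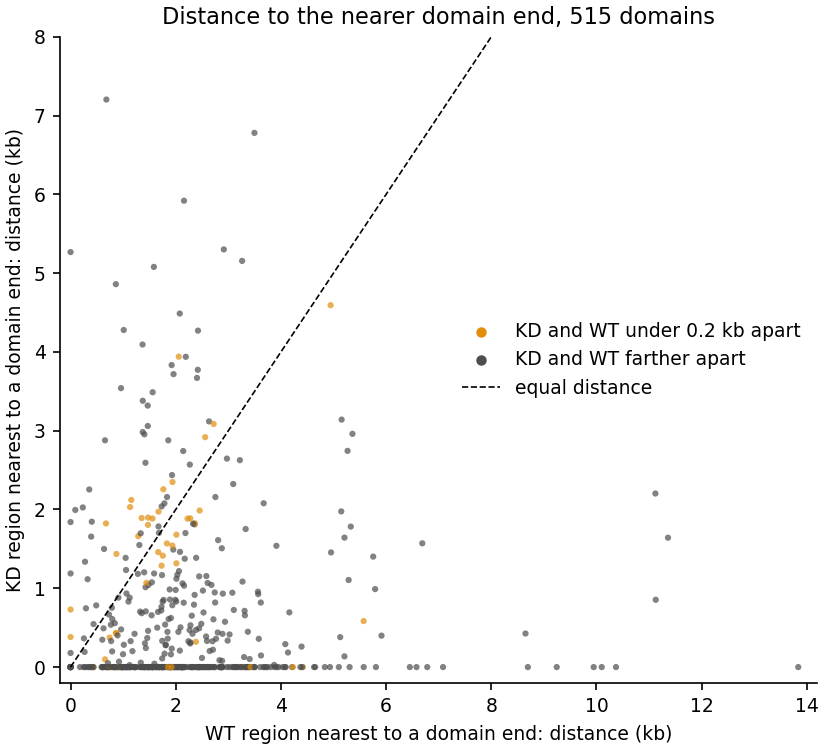
Each point is 1 of the 515 two-way domains, by the distance in kb from the nearer domain end to the KD region (y axis) and to the WT region (x axis) closest to an end, and the dashed line marks equal distance. Most points lie below the line, 433 in all, many of them on the x axis where KD forms the end; orange points are the 46 domains with KD and WT less than 0.2 kb apart.

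Along the length of the domains the directions changed places. In the outermost 2.5% of the length at either end, 27.3% of bases were KD and 1.67% were WT sequence, averaged over the 515 domains. KD coverage was 11.5% between 10 and 12.5% of the length and 6.02% next to the centre. WT coverage was 3.82% between 10 and 12.5% of the length and 13.1% next to the centre. The curves met between 22.5 and 25% of the length, where KD covered 8.78% and WT 8.86% of the bases.

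**Figure D3:**
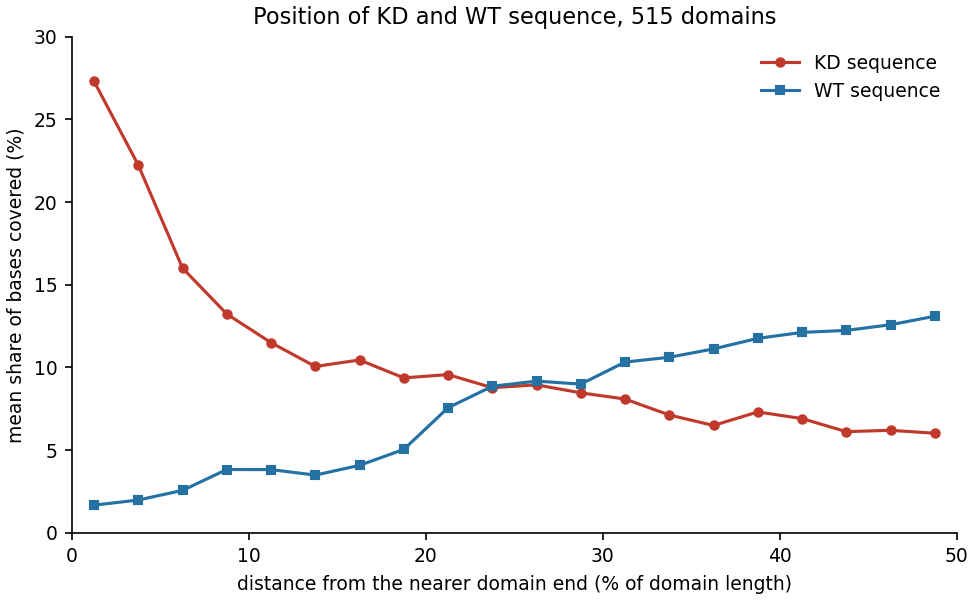
Mean share of bases (%) covered by KD sequence (red circles) and by WT sequence (blue squares) against the distance from the nearer domain end in percent of domain length, over 515 two-way domains in 20 bins. KD coverage is highest at the ends (27.3%) and WT coverage highest at the centre (13.1%).

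The same positions were looked at in domains with common and KD regions but no WT region (5136) and in domains with common and WT regions but no KD region (2434), at the same length. Among domains of more than 5000 and up to 10000 bp with 1 KD region, that region formed an end in 44.4% of the 153 two-way domains (36.8 to 52.4%) and in 40.5% of 634 domains without WT (36.8 to 44.4%). From 2000 to 5000 bp it did so in 43.2% of 81 two-way domains (33.0 to 54.1%) and in 53.7% of 1140 domains without WT (50.8 to 56.6%). From 10000 to 20000 bp the shares were 35.3% of 51 (23.6 to 49.0%) and 22.1% of 154 (16.3 to 29.3%). With 1 KD region the order of the classes thus changed with length. With any number of KD regions, a KD end was less frequent in two-way domains than in those without WT in these 3 length classes. The shares were 54.8 and 64.2% from 2000 to 5000 bp, 53.8 and 58.1% from 5000 to 10000 bp, and 41.3 and 45.1% from 10000 to 20000 bp. They were 83.3 and 82.7% up to 2000 bp, and 45.2 and 41.7% above 20000 bp. Among domains of more than 5000 and up to 10000 bp with 1 WT region, it formed an end in 1 of the 227 two-way domains (0.441%, 0.0778 to 2.45%) and in 13 of 380 domains without KD (3.42%, 2.01 to 5.76%). Between 2000 and 5000 bp, WT formed an end in 6.19% of 97 two-way domains (2.87 to 12.8%) and in 13.6% of 831 domains without KD (11.4 to 16.1%). The difference between the classes was not tested.

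Two-way domains were long. Their median length was 7184 bp (quartiles 5227 and 10736 bp, range 1295 to 43777 bp), against 3698 bp for domains with common and KD regions, 3173 bp for those with common and WT regions and 1742 bp for those with common regions alone. A two-way domain needs at least 2 regions of the one-condition lists, which by itself favours long domains. With exactly 2 such regions the medians were 5964 bp for two-way domains (n = 258, 95% interval of the median 5619 to 6251 bp), 3984 bp for domains with KD alone beside common sequence (n = 1117, 3686 to 4260 bp) and 2981 bp for those with WT alone beside common sequence (n = 383, 2788 to 3457 bp). With 4 or more they were 11241, 9535 and 7086 bp. The share of two-way domains climbed with length, with 6 of 13620 domains up to 2000 bp (0.0441%), 253 of 3626 between 5000 and 10000 bp (6.98%) and 31 of 138 above 20000 bp (22.5%, 16.3 to 30.1%). The share of domains with a KD region in these classes was 28.8, 43.6 and 83.3%, and the share with a WT region was 12.7, 21.2 and 29.7%. Between 2000 and 5000 bp, 1.24% of domains were two-way, 24.8% had a KD region and 15.4% a WT region. The share with KD thus did not climb at every step.

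**Figure D4:**
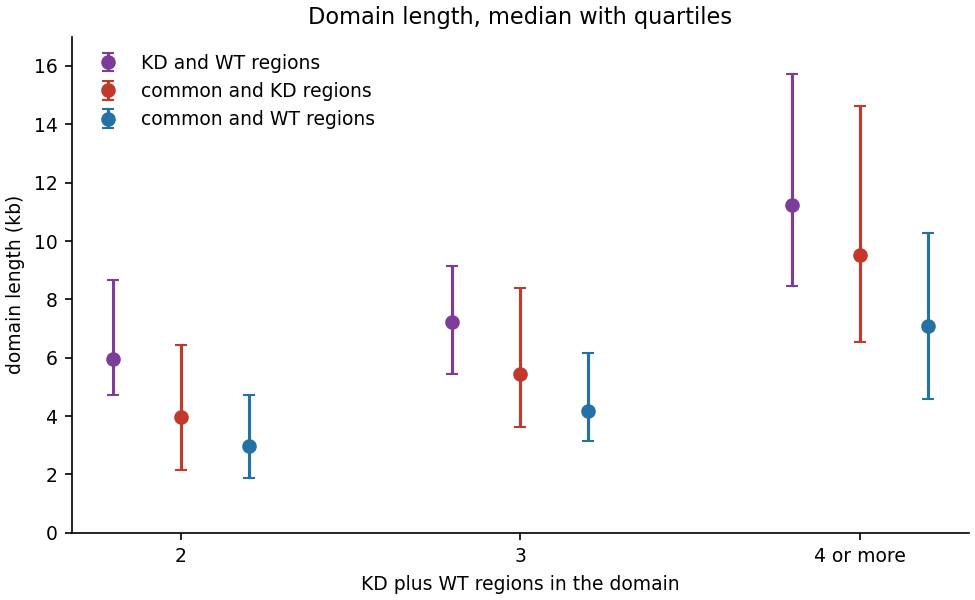
Domain length in kb (points are medians, bars reach from the lower to the upper quartile) by the number of KD plus WT regions in the domain, for two-way domains (purple), domains with common and KD regions (red) and domains with common and WT regions (blue). At each number the two-way domains have the highest median.

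Domains with more KD regions held more KD sequence, while their WT sequence had similar medians. Two-way domains with 1 KD region (292) had a median of 300 bp of KD and 443 bp of WT sequence. Those with 5 or more KD regions (40) had 3240 bp of KD and 425 bp of WT sequence, and 39 of the 40 had a single WT region. Across the 515 domains, Spearman's rho between domain length and KD length was 0.40, and between domain length and WT length it was 0.03. KD and WT length had a rho of -0.07, and the top KD and top WT scores likewise -0.07. These are descriptions across domains of 1 comparison. A KD piece formed an end of 42.8% of domains with 1 KD region (37.3 to 48.5%) and 60.4% of those with 2. It did so in 56.9% of those with 3 or 4 (45.4 to 67.7%) and 72.5% of those with 5 or more (57.2 to 83.9%). The share thus did not rise at every step, and more KD regions give more occasions for a KD end. The richest in pieces beside those already named lay on chromosome 8 at 47189615 to 47210790, with 10 KD regions and 1 WT region, and on chromosome 19 at 21620168 to 21643495. The domain on chromosome 19 had 13 KD regions and formed both ends with KD. Its ends lay 256 and 1650 bp from the first region of another kind, gaps included. It held a WT region of score 16.99, which lay 10371 bp from the nearer end.

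The scores of the directions were unlike. The score was given with the lists and is not defined in the file headers. It served to rank regions, to compare medians and to set cutoffs. The highest KD score of a domain had a median of 4.72 (quartiles 4.04 and 5.88), and the highest WT score a median of 6.996 (5.09 and 10.4). WT had the higher top score in most domains, KD being higher in 156 of 515 (30.3%, 26.5 to 34.4%). KD regions of two-way domains had a median score of 4.28, against 4.29 for KD regions beside common sequence without WT. WT regions of two-way domains had a median score of 6.62 (95% interval 6.23 to 6.97), against 4.83 (4.76 to 4.93) for WT regions beside common sequence without KD. Their lengths were alike, with medians of 411 and 412 bp. In domains without common regions or the other kind, WT regions had a median score of 6.60 (6.30 to 6.87) and KD regions 5.68 (5.57 to 5.81). None of these scores were matched for domain length or place in the domain. The highest WT scores were 23.7 on chromosome 3 at 40904244 to 40905104, 23.7 in the domain on chromosome 10 at 126894262 to 126913159 and 22.1 in the domain on chromosome 5 at 143253378 to 143258528, all 3 singled out after their values were seen. In the first, a KD region of 257 bp (score 3.92) formed the edge of the domain, 1740 bp from the WT region of 861 bp inside it.

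The distance between the nearest KD and WT regions of a domain had a median of 2054 bp (quartiles 1016 and 3261 bp, range 81 to 16864 bp), and common sequence lay between them in 470 domains (91.3%, 88.5 to 93.4%). It was under 200 bp in 46 domains (8.93%, 6.76 to 11.7%), from 200 to under 1000 bp in 78, from 1000 to under 2000 bp in 131, from 2000 to under 5000 bp in 201 and at least 5000 bp in 59. The class under 200 bp was the fullest of all bins of 200 bp, and 10 domains lay from 400 to under 600 bp. In 44 of the 46 closest pairs no common sequence lay between, and this follows in part from the lists, whose shortest region has 200 bp, so that a shorter common stretch could not be listed alone. These classes were set after the distances were seen.

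**Figure D5:**
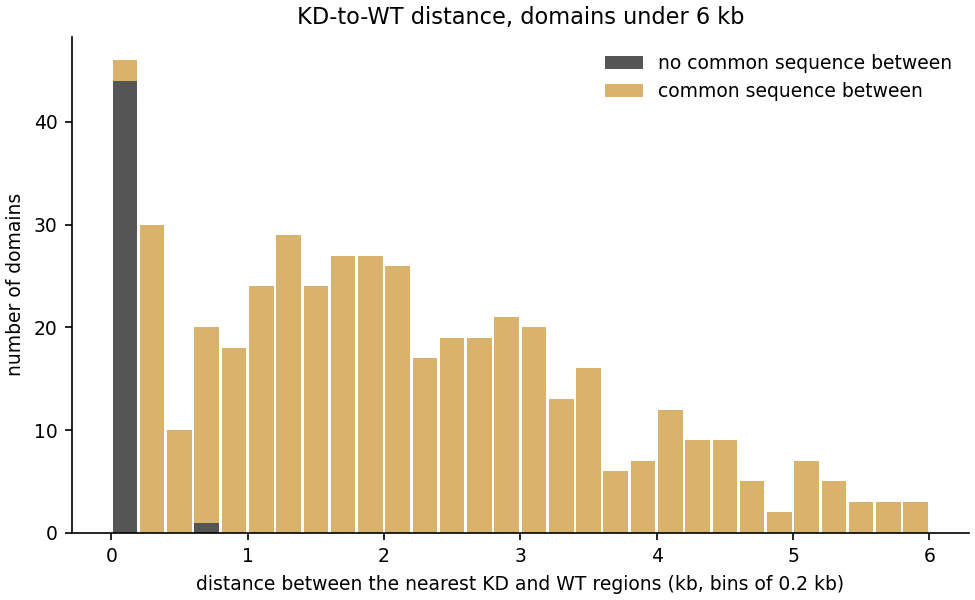
Number of two-way domains by the distance in kb between their nearest KD and WT regions, in bins of 0.2 kb, for the distances under 6 kb (another 38 domains lie beyond). Grey parts are domains with no common sequence between the pair and yellow parts those with common sequence; the first bin holds 46 domains.

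The 46 domains with KD and WT side by side were set beside the other 469. Since WT regions mostly lay inside the domains, a KD region within 200 bp of one lies inside as well, so its place is largely fixed by the choice of the 46. Their KD region was short, with a median of 259 bp, and scored high, with a median of 12.2 (quartiles 7.67 and 20.1), against 315 bp and 4.14 for the KD region of the nearest pair in the other domains. The WT region beside it measured 353 bp and scored 7.58, against 418 bp and 6.79. The centre of the KD region lay 32.7% of the domain length from the nearer end, against 15.2%, while the centre of the WT region lay at 35.7%, against 32.7%. KD formed an end in 10 of the 46 (21.7%, 12.3 to 35.6%) and in 252 of the 469 (53.7%, 49.2 to 58.2%). KD scored above its WT neighbour in 34 of the 46 (73.9%, 59.7 to 84.4%) and in 103 of the 469 (22.0%, 18.5 to 25.9%). Of the 41 two-way domains with a KD score of at least 10, these 46 supplied 27 (65.9%, 50.5 to 78.4%). KD was at the higher coordinate in 22 of the 46 pairs, so neither orientation on the chromosome prevailed.

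The 5 domains with the highest value of the lower of their top scores were all of this kind. On chromosome 8, in the domain at 84720984 to 84726933, a KD region of 354 bp at 84724593 to 84724946 (score 35.8) lay 114 bp from a WT region of 503 bp at 84723976 to 84724478 (score 12.5). On chromosome 5, in the domain at 65851963 to 65857245, a KD region of 245 bp (score 20.9) and a WT region of 618 bp (score 11.7) were 88 bp apart. On chromosome 13, in the domain at 69678391 to 69685421, the KD region of 455 bp came first (score 24.97) and the WT region of 262 bp followed 97 bp later (score 11.5). Common sequence flanked each of these pairs on both sides. On chromosome 18 at 76373108 to 76378812 a KD region of 212 bp (score 12.6) stood between WT regions of 202 bp (score 5.94) and 436 bp (score 14.3). On chromosome 2 at 27565091 to 27569694 a KD region of 230 bp (score 15.7) stood likewise between WT regions of 784 bp (score 11.4) and 899 bp (score 11.6). In both, the whole exchange lay within the inner part of the domain, with gaps of 99 and 107 bp at the closer side.

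The shortest distance of all, 81 bp, was on chromosome 7 at 65756311 to 65780669. There a KD region of 251 bp (score 18.5) lay beside a WT region of 268 bp (score 8.08), and 9 further KD regions with scores of 3.25 to 4.61 were spread over the same 24359 bp. The next shortest were 83 bp on chromosome 3 at 135389379 to 135399070, 84 bp on chromosome 4 at 44231331 to 44235570, 87 bp on chromosome 18 at 73833615 to 73838682 and 88 bp on chromosome 11 at 77378589 to 77388348, the last tied with the domain on chromosome 5 given above. On chromosomes 3, 4 and 11 the KD region scored 15.1, 20.6 and 29.8, and on chromosome 18 it scored 6.44. The longest domain with the whole order common, WT, KD, common lay on chromosome 2 at 18675972 to 18687142. It had scores of 9.52 for its KD region of 256 bp and 9.35 for its WT region of 805 bp.

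At the other extreme, the nearest KD and WT regions lay 14057 to 16864 bp apart in the 5 domains with the greatest distance. Beside those on chromosome 2 given above, they were on chromosome 8 at 106775061 to 106793824 (14887 bp apart), chromosome 17 at 35213622 to 35233189 (14354 bp) and chromosome 11 at 11633283 to 11653689 (14057 bp). Scores in these 3 domains were low, 4.001 to 4.27 for KD and 3.75 to 6.30 for WT. Over the 59 domains at 5000 bp or more, the median top KD score was 4.27 and the median top WT score 6.74.

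The 3 highest KD scores of two-way domains, singled out after their values were seen, were 54.9, 54.0 and 51.2. The first was that of a 2115-bp KD region (chromosome 12, 113393389 to 113395503), which formed the edge of a domain with 3 WT regions (scores 3.84 to 5.68), the nearest of them 694 bp away. The third, of 360 bp on chromosome 12 at 113061828 to 113062187, had a WT region 152 bp away with a score of 4.71. The immunoglobulin heavy-chain locus also lies distally on chromosome 12, and neither region was matched to it. The second, 490 bp long, lay on chromosome 6 at 48024963 to 48025452, with a WT region of 441 bp (score 5.60) 111 bp away. In each, the KD score was the far higher one.

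A few domains had unusually many WT regions or ran against the prevailing arrangement, and were singled out after their values were seen. The greatest number of WT regions, 8, was found on chromosome 6 at 47776341 to 47792052. The 1 KD region of that domain (308 bp, score 7.27) lay 1387 bp from its end, and the WT regions had scores of 3.30 to 5.69. On chromosome 1 at 37900539 to 37906258, 1 KD region of score 7.19 stood against 4 WT regions scoring at most 4.07. The order WT, KD, WT was found in 7 domains, 3 of them named above, and a KD region also lay between WT regions in the 4 with WT, KD, WT, KD. On chromosome 17 at 35112010 to 35120521 the KD region of 335 bp scored 3.55, and its WT flanks of 253 and 758 bp scored 4.38 and 17.1. On chromosome 10 at 17820155 to 17824742 the KD region of 313 bp (score 6.69) lay 1188 bp inside, and a WT region of 662 bp (score 3.87) formed the end.

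Most domains were linked without long gaps. In 300 domains (58.3%, 53.9 to 62.4%) the KD and WT regions were linked by touching or overlapping pieces, and the upper quartile of the gap needed to link them was 160 bp. Just inside the limit of 1000 bp were domains on chromosome 8 at 106359869 to 106369347 (998 bp) and chromosome 12 at 103301912 to 103304582 (986 bp), with KD scores of 3.88 and 5.26 and WT scores of 4.42 and 3.57. Just outside were domains on chromosome 10 at 80452861 to 80463789 (1005 bp) and chromosome 8 at 93081683 to 93084744 (1033 bp), with KD scores of 6.55 and 7.96 and WT scores of 9.13 and 4.14. Overlap with common regions was frequent, since 648 of 1019 KD regions (63.6%) and 427 of 579 WT regions (73.7%) overlapped one, and 140 KD regions (13.7%, 11.8 to 15.99%) and 39 WT regions (6.74%, 4.97 to 9.08%) lay wholly inside one.

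Two-way domains were found on all 18 autosomes, from 11 on chromosome 16 to 42 on chromosome 5. Relative to all domains of a chromosome their share ran from 1.10% on chromosome 16 (0.614 to 1.96%) to 2.73% on chromosome 17 (2.00 to 3.72%). Chromosomes 3 and 12 followed with 2.69 and 2.65%. Of 497 neighbouring pairs of two-way domains on the same chromosome, 26 were within 100 kb of each other and 1 within 10 kb.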

How the data were processed

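The authors deposited 3 lists of H3K4me3 regions (unique to KD, unique to WT, common to both, per the file headers), each with 1 score per region. The submitters' processing notes name MACS2 2.2.6, SAMtools 1.6 and Bowtie2 2.2.9, with GRCm39 as the build. Settings, filters, order of steps and pooling of replicates: not given in the sources used here. In the deposited files, scores of KD and WT regions all exceeded 3, and those of common regions were all lower. The lists give no count, depth or value per library, so replicates could not be compared and no test was run.

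Regions were joined, ordered and measured with scipy 1.17.1, numpy 2.4.6 and pandas 2.3.3 in Python 3.11.15, and drawn with matplotlib 3.10.9. Where lists overlapped, a base counted as KD or WT before common. Coordinates are 1-based on GRCm39. Shares have 95% Wilson intervals, and medians have exact binomial intervals. The code was tested on simulated data and returned the order, ends and distance of 427 of 427 built domains that held both kinds. No simulated KD or WT region lay wholly inside a common one, so that case was not tested.

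Domains named are the 5 longest, the 5 highest by the lower of their top scores, the 5 shortest and 5 longest KD-to-WT distances, the 5 with the most pieces and the longest of each of the 5 most frequent orders; others are marked as chosen after their values were seen, beside those next to the joining limit. The members and lists were chosen with earlier results of these data known. The gene table at hand is for GRCm38.p6 and coordinates were not converted, so start sites, gene names, preset gene lists and sequences were not analysed here.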

Additional observations from a re-analysis of the deposited data

How the results depend on the processing

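Under the alternatives, 54 values were recomputed, and 39 of them remained inside the main interval (for counts, a factor of 1.5). In every alternative run, KD formed an end more often than WT. The number of two-way domains was 302 when only touching pieces were joined, 155 with KD and WT scores of at least 5 and 272 with KD and WT regions of at least 300 bp. The median length was 6037.5, 8042 and 8013 bp with touching pieces, a joining gap of 2000 bp and regions of at least 300 bp. The share with a KD end was 38.7% with touching pieces, 41.9% at a score of at least 5 and 42.2% with 1 KD and 1 WT region. The share with a WT end was 6.29% with touching pieces, and KD was the nearer to an end in 80.5% with touching pieces and 73.5% at a score of at least 5. The median KD-to-WT distance was 2296.5 bp with regions of at least 300 bp. The most frequent order had a share of 40.1% with touching pieces and 29.7% at a score of at least 5. By construction more links enter with a gap of 2000 bp and fewer regions, links or domains under the others; other causes were not tested. Ends of at least 200 bp and leaving out the distal end of chromosome 12 were chosen after seeing the data. No paired analysis was possible because values per replicate are not in the lists, which also means that no replicate could be left out. The share of domains at start sites was not run. Limits set by depth cannot be given, as the depth is unknown.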

Other observations

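Chromosomes 15 and X, which stand outside the set described above, also had two-way domains. On chromosome 15 there were 35 among 1208 domains (2.90%, 95% Wilson interval 2.09 to 4.003%), with 101 KD and 37 WT regions and a median length of 6262 bp. KD formed an end in 23 of the 35 and WT in 1. On X there were 4 among 649 domains (0.616%, 0.240 to 1.57%), with 5 KD and 4 WT regions, and KD formed an end in 4 and WT in 1 of them. On Y, 0 of 13 domains were of this kind, which allows a share of up to 23.1% (3 of 13).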
